A study of Mus musculus with 3 samples.

Results

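The cells described here were cartilage cells of the mouse fracture callus in which at least 4 of 7 genes, Car8 and Snx22 among them, were detected. They are called Car8 and Snx22 chondrocytes below, although Snx22 itself was detected in only 21.3%, 30.8% and 23.3% of them at days 7, 10 and 14. They were chosen by measured values. Among cells with 500 to 5000 detected genes, at most 10% mitochondrial unique molecular identifiers (UMIs, each standing for 1 captured transcript), at most 5% haemoglobin UMIs and no UMI of Ptprc, which encodes the leukocyte antigen CD45, a cell was kept if it had at least 5 Cnmd UMIs per 10000, fewer than 50 Col10a1 UMIs per 10000, and UMIs of at least 4 of the 7 genes Car8, Snx22, Fzd9, Extl1, Ncmap, Cmtm5 and Sorbs2. These 7 are called the rule genes. Of the 6486 cells with at least 5 Cnmd UMIs per 10000 (Cnmd cells), 3147 were chosen, namely 47 of 78 at day 7, 2059 of 3591 at day 10 and 1041 of 2817 at day 14. The comparison cells were the remaining Cnmd cells of the same day, 31, 1532 and 1776 in number. Most of these also had low Col10a1 (29, 1285 and 1391 cells) and fell short in rule genes, while 2, 247 and 385 cells had at least 50 Col10a1 UMIs per 10000.

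The study collected femoral fracture callus from untreated C57BL/6 mice at 7, 10 and 14 days after fracture and made 1 droplet single-cell RNA library for each day. Muscle and marrow were cleaned away, the callus was digested with collagenase, and live cells without CD31, CD45 and TER119 were sorted. Neither the age of the mice nor the number pooled into a library was given in the sources used here. With 1 library a day there was no replicate of any day, so no test between days or between groups of cells was made, and each interval below covers counting error only. Levels are in CPM, the UMIs of a gene per 1000000 UMIs summed over a group of cells on 1 day, with exact 95% Poisson intervals. Differences are log2 ratios of such levels with exact 95% binomial intervals.

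In the growth plate and in callus cartilage, chondrocytes first proliferate and lay down a matrix of collagen II and aggrecan, then stop dividing as prehypertrophic cells, and then enlarge as hypertrophic cells that make collagen X, encoded by Col10a1. Prehypertrophic cells are known for Ihh, the Indian hedgehog ligand, for Pth1r, the receptor of parathyroid hormone-related peptide, and for Panx3, a pannexin channel. Ihh keeps neighbouring cells proliferating through parathyroid hormone-related peptide, and Mef2c and Runx2 are transcription factors that drive hypertrophy. Cnmd encodes chondromodulin, a cartilage protein that keeps vessels out.

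The 3 libraries held 9103, 8801 and 12984 cells, of which 7017, 6593 and 9853 met the limits on genes, mitochondrial and haemoglobin UMIs. The day 7 library went against its CD45-negative label, since only 447 of its 7017 cells lacked a Ptprc UMI, against 6587 of 6593 at day 10 and 9680 of 9853 at day 14. Day 7 values are therefore given as a description of 47 cells and were left out of the counts of genes. The libraries shared 29, 42 and 35 cell barcodes in pairs, and no barcode was a chosen cell in 2 libraries. The chosen cells summed to 1046813 UMIs at day 7, 43020760 at day 10 and 24417212 at day 14. They were sequenced more deeply per cell than the remaining Cnmd cells, with median UMIs of 23325, 20620 and 23460 against 14542, 16242 and 17208. A deeper cell has more chances to show 4 rule genes. Among cells of at least 10000 UMIs, the chosen share of Cnmd cells was 61.7% at day 10 and 41.62% at day 14. When these cells were first thinned to 10000 UMIs, the share dropped to 36.0% at day 10 and 19.4% at day 14.

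Unthinned, the Car8 and Snx22 chondrocytes made up 60.3% of Cnmd cells at day 7 (Clopper-Pearson interval 48.5% to 71.2%), 57.3% at day 10 (55.7% to 59.0%) and 37.0% at day 14 (35.2% to 38.8%). Of all cells without Ptprc they were 10.5%, 31.3% and 10.8%. The share was thus lower at day 14 than at day 10 by either count, and it depended on depth and on the number of rule genes asked for. Sorting and tissue yield could not be told apart from the day, because each day was 1 library.

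The 7 genes that chose the cells differ in what their products do. Car8 (chromosome 4, 8143362 to 8239041, minus strand, GRCm38) encodes a carbonic anhydrase-related protein without enzyme activity that binds the inositol trisphosphate receptor. Snx22 (chromosome 9, 66065176 to 66069719, minus strand) encodes a sorting nexin of the endosomal membrane, and Fzd9 (chromosome 5, 135248938 to 135251230, minus strand) a Frizzled receptor for Wnt ligands. Extl1 (chromosome 4, 134356372 to 134383850, minus strand) encodes a glycosyltransferase of heparan sulfate synthesis and Ncmap (chromosome 4, 135369576 to 135398227, minus strand) a membrane protein first known from myelin, and these genes start 1014 kb apart. Cmtm5 (chromosome 14, 54936261 to 54939274, plus strand) encodes a MARVEL-domain membrane protein, and Sorbs2 (chromosome 8, 45507788 to 45827906, plus strand) an adaptor of the actin cytoskeleton.

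Because the rule used these 7 genes, their levels are a description and carry no test. Car8 stood at 133 CPM in the chosen cells at day 7 (112 to 157), 220 CPM at day 10 (215 to 224) and 265 CPM at day 14 (259 to 272), against 42.4, 70.1 and 76.2 CPM in the remaining Cnmd cells. Snx22 was the least abundant, at 10.5 CPM (5.25 to 18.8), 19.0 CPM (17.7 to 20.4) and 12.2 CPM (10.9 to 13.7), and none of its UMIs fell in the 31 remaining cells of day 7. Fzd9 was at 144, 117 and 112 CPM in the chosen cells and at 92.6, 67.5 and 57.2 CPM in the remaining cells. Fzd9 was thus the rule gene with the smallest gap at days 10 and 14, with log2 ratios of 0.80 and 0.96, while those of Cmtm5 were 1.90 and 1.89. Extl1 stood at 35.4, 30.3 and 21.1 CPM in the chosen cells and Cmtm5 at 28.7, 93.7 and 77.7 CPM. Ncmap stood at 171, 173 and 151 CPM and Sorbs2 at 188, 187 and 126 CPM. Across days, Car8 was lowest at day 7, Cmtm5 was lowest at day 7 and Sorbs2 was lowest at day 14.

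Single cells carried the 7 genes unevenly. At day 10, UMIs of Ncmap were found in 89.9% of the chosen cells, Sorbs2 in 86.2%, Fzd9 in 85.7%, Car8 in 78.1%, Cmtm5 in 76.6%, Extl1 in 45.1% and Snx22 in 30.8%. At day 14 the shares were 91.0% for Ncmap, 80.3% for Sorbs2, 85.8% for Fzd9, 81.6% for Car8, 74.3% for Cmtm5, 38.4% for Extl1 and 23.3% for Snx22. Just 4 rule genes, the fewest allowed, were seen in 752 cells (36.5%) at day 10 and 473 (45.4%) at day 14, and all 7 in 83 and 24 cells.

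After thinning to 10000 UMIs, Car8 was detected in 67.9% of the chosen cells at day 10 (65.8% to 70.0%) and 68.3% at day 14 (65.4% to 71.2%), against 24.5% and 24.0% of the remaining Cnmd cells. Snx22 was detected in 17.9% and 11.9% of chosen cells against 4.85% and 3.49% of the remaining cells. As a cell type that should lack cartilage genes, cells with at least 10 Rgs5 UMIs per 10000 (Rgs5 marks pericytes) and no Cnmd were taken. Car8 was found in 0 of 36 such cells at day 10, with an upper limit of 9.74%, and in 1 of 62 at day 14 (1.61%). The median depths before thinning were 12392 and 8499 UMIs over all 48 and 161 pericyte-marker cells of days 10 and 14. Of these, 12 and 99 had fewer than 10000 UMIs and were left out of the thinned shares. Also left out for this reason were 66 and 21 chosen cells and 295 and 345 remaining Cnmd cells. Car8 in the remaining Cnmd cells lay above this background, so the remaining cells were not free of Car8.

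**Figure D1:**
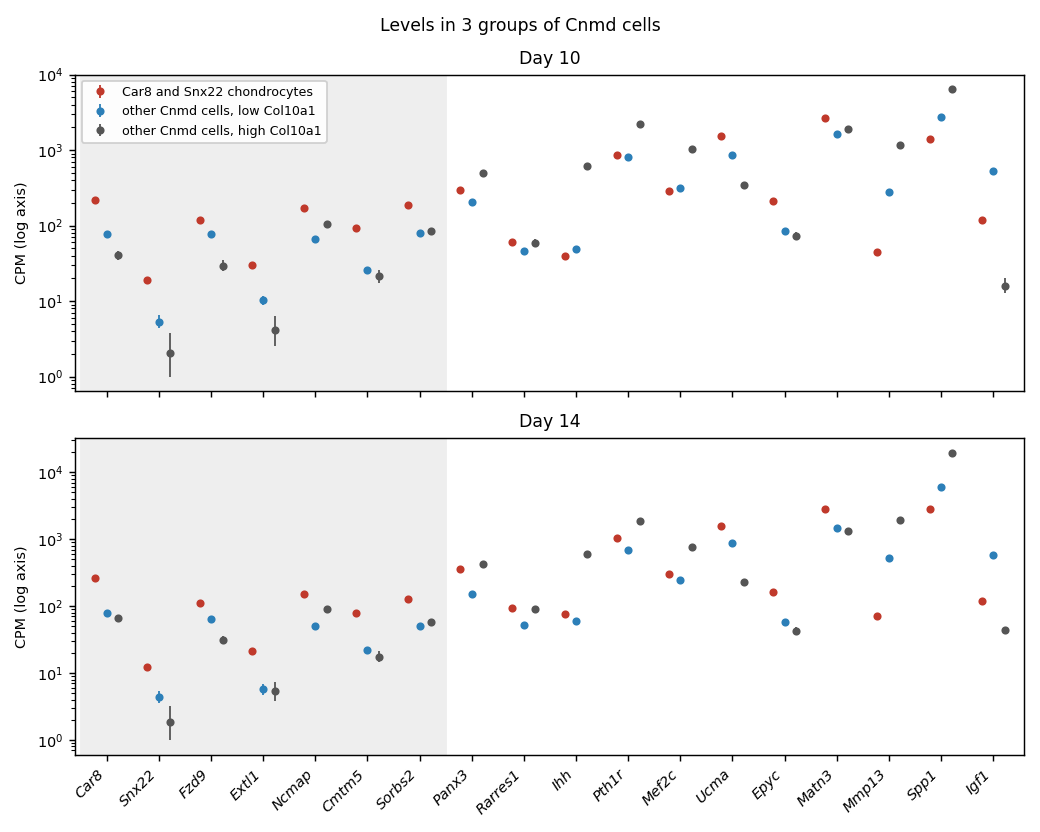
Levels of 18 genes in CPM of summed UMIs, on a log axis, in the chosen cells, the remaining Cnmd cells with low Col10a1 and the remaining Cnmd cells with high Col10a1, at day 10 and day 14. Points carry exact 95% Poisson intervals (counting error only) and the grey band marks the 7 rule genes. Car8 stood at 220 CPM in the chosen cells at day 10, while Ihh stood at 39.6 CPM there and at 613 CPM in the cells with high Col10a1.

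Each rule gene was also left out of the rule in turn. The 7 genes had been put together with results of these cells known, so the values that follow describe the grouping and are no independent support for it. Cells were chosen by at least 4 of the other 6 genes under the same Cnmd and Col10a1 limits, and the level of the gene left out was compared between the cells so chosen and the other Cnmd cells. Every gene left out was higher in the chosen cells on both days, with log2 ratios from 0.31 for Fzd9 (0.24 to 0.38) to 0.84 for Cmtm5 (0.76 to 0.93) at day 10. At day 14 they ran from 0.59 for Fzd9 (0.50 to 0.68) to 1.10 for Car8 (1.04 to 1.16). The median over the 7 genes was 0.68 at day 10 and 0.86 at day 14. Against the other cells with low Col10a1 alone the medians were 0.50 and 0.63, and the smallest ratio was that of Fzd9 at day 10, 0.17 (0.10 to 0.24). Snx22, with 16.2 CPM in the chosen cells and 10.1 CPM in the others at day 10, had a ratio of 0.68 (0.47 to 0.89). Depth was higher in cells with more rule genes, and its part in these ratios was not tested beyond the fits on thinned cells and on cells of at least 10000 UMIs, in which the smallest ratios were 0.31 and 0.33 at day 10 and 0.46 and 0.60 at day 14.

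**Figure D2:**
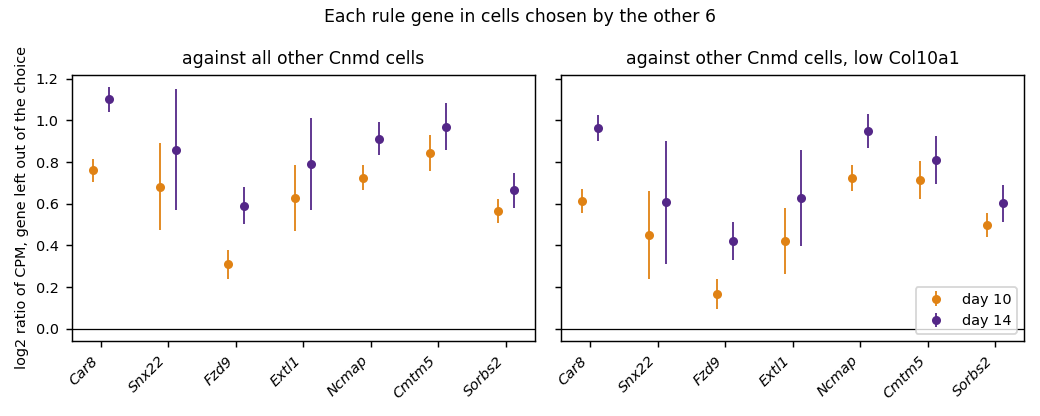
Log2 ratio of the level of each rule gene, when that gene was left out of the rule, in cells chosen by at least 4 of the other 6 genes over all other Cnmd cells (left) and over other Cnmd cells with low Col10a1 (right). Points are day 10 and day 14 with exact 95% binomial intervals. All ratios lie above 0, between 0.17 for Fzd9 and 1.10 for Car8.

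Of the 5 genes given as marks of these cells, Car8, Snx22 and Fzd9 were in the rule, and Panx3 and Rarres1 were not. Panx3 (chromosome 9, 37659902 to 37669235, minus strand) stood at 406, 296 and 357 CPM in the chosen cells at days 7, 10 and 14 and at 183, 261 and 215 CPM in the remaining cells. The log2 ratios were 1.15 (0.82 to 1.48), 0.18 (0.14 to 0.23) and 0.73 (0.69 to 0.78). Panx3 was highest, however, in the remaining cells with high Col10a1, with 496 and 426 CPM at days 10 and 14, and against the cells with low Col10a1 the ratios were 0.54 and 1.24. Rarres1 (chromosome 3, 67478972 to 67515523, minus strand), a retinoid-responsive membrane protein gene, stood at 65.0, 61.0 and 94.3 CPM against 59.8, 48.1 and 61.0 CPM. Its ratio was 0.34 (0.24 to 0.44) at day 10 and 0.63 (0.54 to 0.72) at day 14, and the interval at day 7 included 0. Rarres1 in the cells with high Col10a1, at 59.1 and 89.1 CPM, was close to its level in the chosen cells.

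The other genes that mark the prehypertrophic stage were not highest in these cells. Ihh stood at 51.6, 39.6 and 77.1 CPM in the chosen cells at days 7, 10 and 14, at 49.3 and 60.4 CPM in the remaining cells with low Col10a1 at days 10 and 14, and at 613 and 608 CPM in those with high Col10a1. The chosen cells were thus near the other cells with low Col10a1, with ratios of -0.32 (-0.43 to -0.20) and 0.35 (0.25 to 0.45). Pth1r stood at 872 and 1056 CPM in the chosen cells, at 822 and 688 CPM in the other cells with low Col10a1 and at 2205 and 1866 CPM with high Col10a1. Against the other cells with low Col10a1 its ratios were 0.09 (0.06 to 0.11) and 0.62 (0.59 to 0.65). Mef2c followed the same order in part, at 286 and 302 CPM, then 313 and 244 CPM, then 1047 and 766 CPM. Panx3 on both days and Pth1r mainly at day 14 were thus higher than in other cells with low Col10a1, while Ihh, Pth1r, Mef2c and Panx3 were all higher still with high Col10a1. The label prehypertrophic is therefore not used for the whole group. The cells are named by their rule genes, and the part of them with more Ihh, Pth1r, Mef2c and Panx3 is described further on.

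A gene counted as measured where the higher of the groups compared reached 20 CPM, and so 5182 genes were measured at day 10 and 5065 at day 14. At least 2-fold higher in the chosen cells were 20 genes at day 10, or 0.386%, and 18 at day 14, or 0.355%. At least 2-fold lower were 126 genes, or 2.43%, and 168 genes, or 3.32%. Of the 4917 genes measured on both days, 9 were 2-fold higher on both (0.183%) and 107 were 2-fold lower on both (2.18%). Of the 9, 5 were rule genes, which had to differ, and the other 4 were Epyc, Ucma, Kctd4 and Unc5c, of which Kctd4 and Unc5c are named here after their values were seen. Col10a1, used by the rule, was among the 107. Against the remaining cells with low Col10a1 alone, 17 of 5201 genes (0.327%) were 2-fold higher and 123 (2.36%) 2-fold lower at day 10, and 25 of 5102 (0.49%) and 187 (3.67%) at day 14. The median log2 ratio of all measured genes was -0.06 at day 10 and -0.05 at day 14.

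The genes outside the rule that were furthest above the remaining cells, taking the smaller ratio of days 10 and 14 among genes of at least 50 CPM, were led by small proteins of the cartilage matrix. Epyc (chromosome 10, 97644068 to 97682454, plus strand), the proteoglycan epiphycan, stood at 178, 213 and 162 CPM against 52.1, 82.2 and 54.8 CPM on the 3 days, with log2 ratios of 1.37 (1.30 to 1.44) at day 10 and 1.56 (1.48 to 1.65) at day 14. Ucma (chromosome 2, 4976122 to 4985748, plus strand), which encodes a secreted protein first described in the upper zone of growth plate cartilage, stood at 2124, 1556 and 1552 CPM against 594, 770 and 737 CPM. Its ratios were 1.02 (0.99 to 1.04) and 1.07 (1.05 to 1.10) at days 10 and 14, and 0.83 and 0.80 against the cells with low Col10a1. Ucma was lowest in cells with high Col10a1, at 344 and 231 CPM.

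Scrg1, a secreted chondrogenesis-related peptide gene, had ratios of 0.85 and 0.90 at days 10 and 14, and the matrix proteoglycan Prelp 0.80 and 0.80. Mia, which encodes a secreted cartilage protein, stood at 1606 and 1059 CPM against 964 and 626 CPM, and Matn3, a matrilin of the cartilage fibril network, at 2652 and 2786 CPM against 1694 and 1434 CPM. Slc26a2, the sulfate transporter that feeds proteoglycan sulfation, had ratios of 0.74 and 0.94, and Csgalnact1, which starts chondroitin sulfate chains, 0.69 and 0.71. Fads2, a fatty acid desaturase, had ratios of 0.84 and 1.06, and Phyh, a peroxisomal enzyme of fatty acid breakdown, 0.64 and 0.71. Plagl1, a zinc finger transcription factor from an imprinted locus, stood at 685 and 476 CPM against 414 and 230 CPM. The adhesion receptor gene Adgrg6 had ratios of 0.70 and 0.79, and the calcium-binding protein gene S100b 0.84 and 0.73. H2-DMa, a chaperone gene of antigen presentation, had ratios of 0.76 and 1.37 at days 10 and 14 and of -0.94 (-1.92 to 0.05) at day 7. Gfpt2, the entry enzyme of hexosamine synthesis, had ratios of 0.71 and 0.86, and Srpx 0.72 and 0.84. The other genes in this ranking were Pdrg1, Lbhd2, Meltf and Ltv1, with ratios from 0.64 to 0.78.

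Furthest below the remaining cells was Mmp13, the collagenase of terminal hypertrophic chondrocytes and osteoblasts, at 57.3, 44.5 and 70.6 CPM in the chosen cells and 339, 453 and 849 CPM in the remaining cells. Its log2 ratios were -3.35 (-3.42 to -3.28) at day 10 and -3.59 (-3.66 to -3.52) at day 14, and -2.64 and -2.90 against the cells with low Col10a1. Igf1, insulin-like growth factor, stood at 117 and 119 CPM against 426 and 461 CPM at days 10 and 14. Igfbp5, which binds this factor, stood at 20.7 and 21.4 CPM against 130 and 197 CPM. Igf1 was lower still in cells with high Col10a1, at 16.0 and 43.2 CPM, so its high level belonged to the remaining cells with low Col10a1. Genes of the matrix and of signalling were in the same ranking. Abi3bp, an extracellular matrix protein gene, had ratios of -1.79 and -1.75, the elastic fibre gene Fbn2 -1.61 and -1.94, the growth factor Ptn -1.43 and -1.84, and Olfml2b -2.22 and -2.06. The BMP antagonist Nbl1 had ratios of -2.02 and -1.98, Kctd12 -1.83 and -2.25, and the protein kinase C substrate Marcks -1.56 and -1.85. Irx5 and Ddit4l had a different pattern, as both were highest in cells with high Col10a1, Irx5 at 202 and 155 CPM and Ddit4l at 202 and 236 CPM.

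The neutrophil genes S100a8 and S100a9 were also among the 15 genes furthest below, but at days 10 and 14 few cells held most of their UMIs. S100a8 was detected in 1.07% of chosen and 0.65% of remaining cells at day 10. At day 14 it was detected in nearly equal shares, 18.1% and 18.0%. At day 10, 1 remaining cell held 99.3% of the 2538 UMIs of these genes among the remaining cells. At day 14, 67 remaining cells held 87.5% of 6232 UMIs, and 1 chosen cell held 50.9% of the 1143 UMIs among chosen cells. With cells of at least 20 such UMIs per 10000 left out, the S100a8 ratio at day 10 changed sign, to 0.55. At day 7 both groups carried them, with S100a8 at 689 CPM in chosen and 822 CPM in remaining cells and S100a9 at 879 and 1024 CPM.

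**Figure D3:**
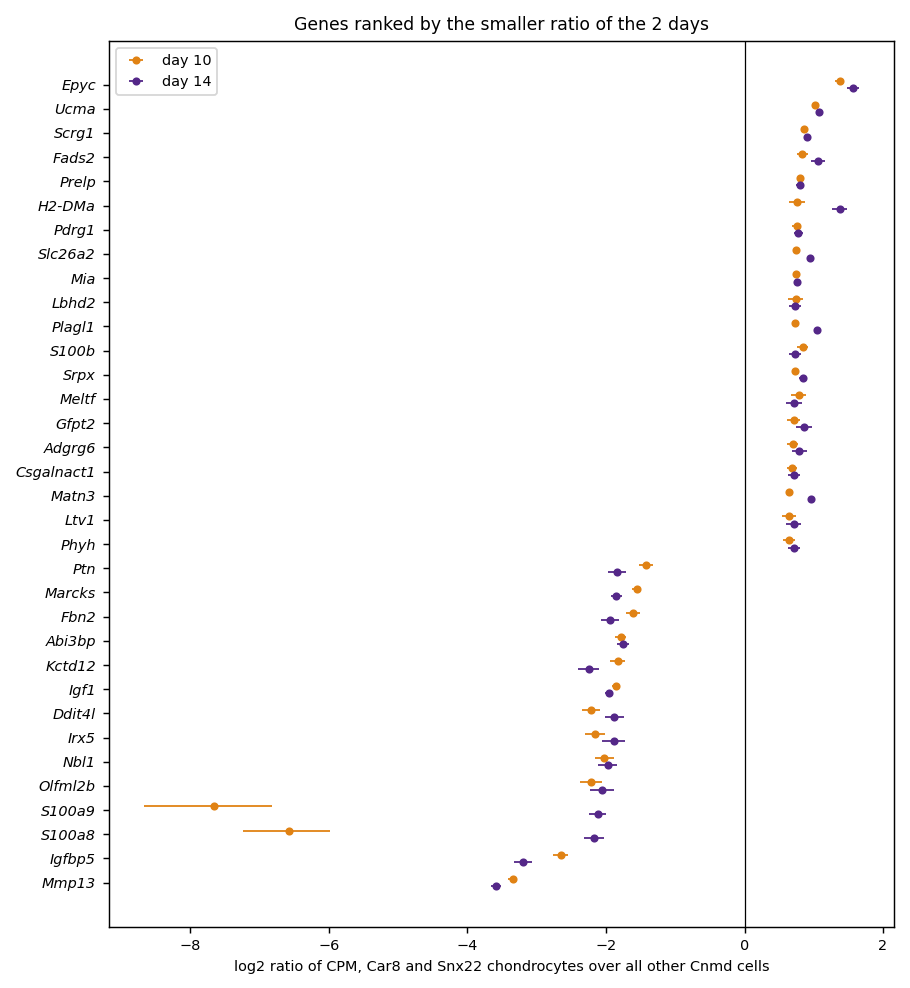
Log2 ratio of the chosen cells over the remaining Cnmd cells for the 20 genes outside the rule furthest above 0 and the 14 furthest below, ranked by the smaller ratio of day 10 and day 14 among genes of at least 50 CPM. Bars through the points are exact 95% binomial intervals. Epyc, at 1.37 and 1.56, and Ucma, at 1.02 and 1.07, lead the higher genes by their smaller ratio, and Mmp13 lies at -3.35 and -3.59. The points of S100a8 and S100a9 at day 10 rest on 1 remaining cell.

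Gene groups were described by how many measured members had a counting interval above or below 0 on both days. Over all 4917 genes this held for 20.8% above and 33.8% below, which is the share to read each group against. Of 18 measured genes of the cartilage matrix, 14 were higher on both days and 2, Matn2 and Chad, lower, with median log2 ratios of 0.37 at day 10 and 0.58 at day 14. Against the remaining cells with low Col10a1, the share over all 4950 genes was 17.1% above and 35.5% below. There 15 of 18 cartilage matrix genes were higher and 3 lower. Chad turned, with ratios of 0.27 and 0.19, while Matn4 and Fmod joined Matn2 among the lower genes. Collagen II, encoded by Col2a1, stood at 45849 and 40728 CPM in the chosen cells against 35429 and 27675 CPM, and Col9a1 at 4814 and 4333 CPM against 3129 and 2264 CPM. The aggrecan gene Acan had ratios of 0.14 and 0.39. Hapln1, the link protein, differed little at day 10, with a ratio of 0.03 (0.02 to 0.04), and more at day 14, 0.78 (0.77 to 0.80).

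The synthesis of the glycosaminoglycan chains that hang on these matrix proteins had 20 measured genes, of which 11 were higher on both days and 3 lower. Papss2, which makes the sulfate donor, stood at 357 and 358 CPM against 235 and 188 CPM. Xylt1, which attaches the first sugar, had ratios of 0.38 and 0.50, and Chst11, a chondroitin sulfotransferase, 0.59 and 0.75. The 3 lower genes, Hs2st1, Sulf1 and Sulf2, act on heparan sulfate, with Sulf1, which removes sulfate groups outside the cell, at -0.56 and -0.90. Of 23 measured genes of the secretory pathway, 13 were higher, among them the chaperones Hspa5, Calr and Serpinh1, and 2 lower, with medians of 0.07 and 0.25. Against the remaining cells with low Col10a1, 9 of the 23 were higher and 2 lower, with medians of 0.005 and 0.17. Serpinh1 was among these 9, while Hspa5 and Calr were not.

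Among 17 measured chondrocyte transcription factors, 7 were higher (Sox9, Sox5, Sox6, Foxa3, Runx3, Shox2 and Atf3) and 8 lower, with medians of -0.15 and -0.09. Against the remaining cells with low Col10a1, the same 7 were higher and 4 lower (Runx1, Runx2, Trps1 and Foxo3), with medians of 0.02 and 0.12. The SOX trio, which switches on cartilage matrix genes, had small ratios against all remaining cells. These were 0.22 and 0.27 for Sox9, 0.50 and 0.36 for Sox5, and 0.33 and 0.37 for Sox6. Runx2 was at 77.1 and 55.7 CPM against 106 and 90.2 CPM, and Sp7 differed by 0.01 (-0.08 to 0.11) and 0.07 (-0.04 to 0.18). Of the 15 measured genes of hypertrophy and mineralization, 11 were lower on both days and only Panx3 higher, with medians of -0.63 and -0.61. Ibsp, bone sialoprotein, stood at 5870 and 7682 CPM against 15003 and 15189 CPM, and Spp1, osteopontin, at 1388 and 2841 CPM against 3435 and 9243 CPM. This count was partly fixed by the rule, which sent cells with high Col10a1 to the other side. Against the remaining cells with low Col10a1, 6 of the 15 were lower and 2 higher, with medians of -0.29 and -0.11, beside 35.5% lower and 17.1% higher over all 4950 genes.

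Signalling genes split both ways. In the FGF pathway, Fgfr3, the receptor that restrains chondrocyte growth, was higher, at 215 and 202 CPM against 159 and 122 CPM, with Fgfrl1, while Fgfr1, Fgfr2 and Spred1 were lower. Of 13 Wnt pathway genes other than Fzd9, 3 were higher on both days (Wnt5a, Sfrp5 and Rspo3) and 6 lower. Against the remaining cells with low Col10a1, Wnt5a, Wnt5b, Frzb and Rspo3 were higher and 6 of 14 genes lower, and Frzb, lower in the first comparison, turned. Rspo3, a ligand that strengthens Wnt signals, stood at 48.3 and 33.3 CPM against 22.5 and 18.5 CPM. Of 13 BMP pathway genes 4 were higher and 6 lower, and against the remaining cells with low Col10a1 4 of 12 were higher and 3 lower. Of 8 measured genes of the hedgehog and parathyroid hormone-related peptide pathways none was higher on both days and 3, Ihh, Smo and Gas1, were lower, in a comparison where the rule had sent the cells with high Col10a1 and high Ihh to the other side. Against the remaining cells with low Col10a1, Pth1r was higher, 4 genes (Ptch1, Smo, Cdon and Gas1) were lower, and Ihh was not lower on both days. Ptch1, the hedgehog receptor, was at 174 and 217 CPM in the chosen cells and 167 and 217 CPM in the remaining cells.

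Partners of the rule genes' products gave a mixed picture. Car12, the 1 other carbonic anhydrase measured, had ratios of 0.16 and 0.98. Among 11 channel and calcium genes, Trpv4, a calcium channel of chondrocytes, was at 179 and 153 CPM against 123 and 94.3 CPM. Itpr2, an inositol trisphosphate receptor gene, was higher at 103 and 77.9 CPM against 77.9 and 58.7 CPM, while its relative Itpr1 was lower at 13.0 and 12.5 CPM against 22.0 and 25.5 CPM. Of 7 retinoid genes, only the receptor Rarg was higher, with ratios of 0.21 and 0.20, and 4 were lower. Of 6 measured relatives of the rule genes, 3 were higher, among them the sorting nexins Snx3 and Snx5, and 3 lower, Snx2, Cmtm3 and Cmtm7. Of 8 measured cell cycle genes, 2 were higher (Ccnd1 and Ccnd3) and 4 lower (Ccnd2, Cdkn1a, Cdkn1b and Cdkn2c). Most of the 23 genes of this list, Mki67 among them, were not measured on both days, so the count does not describe cell division. Of 19 genes of glycolysis and hypoxia 4 were higher and 3 lower. Of 9 markers of resting and early chondrocytes, 4 were higher (Ucma, Epyc, Sfrp5 and Car12) and 2 lower (Clu and Penk). Against the remaining cells with low Col10a1, 4 of 9 were higher (Ucma, Epyc, Cytl1 and Car12) and 4 lower (Clu, Nrk, Matn4 and Penk).

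Markers of other cell types were looked at in whole lists. All 10 fibroblastic and periosteal markers were lower on both days, and their summed level was 18221 and 16489 CPM in the chosen cells against 22759 and 20552 CPM. Against the cells with high Col10a1 alone this turned, since these summed to 10246 and 11522 CPM. The median log2 ratio of the 10 markers against these cells was 1.54 at day 10 and 0.76 at day 14, with 1 marker lower at day 14. The share over all genes was not worked out for this comparison. Of 6 measured osteoblast markers 5 were lower, and of 3 tenocyte markers all were lower, their list summing to 91.2 and 82.9 CPM against 179 and 153 CPM. The tenocyte list too was lowest with high Col10a1, at 35.6 and 56.7 CPM. The part of fibroblastic, bone and tendon cells in the lower genes above was not tested. A list of Schwann cell markers was looked at because Ncmap is a myelin gene. Its 8 genes other than Ncmap summed to 10.4 and 8.93 CPM in the chosen cells and 11.4 and 10.5 CPM in the remaining cells. Foxd3 was at 0 in the chosen cells. The endothelial list summed to 3.44 and 3.03 CPM with Cdh5 and Tie1 at 0, the lymphocyte list to 0.67 and 0.37 CPM with Ms4a1 and Vpreb3 at 0, and the macrophage list to 13.0 and 14.9 CPM with C1qa and Adgre1 at 0. Muscle markers summed to 11.8 and 10.8 CPM with Myog and Myh3 at 0, and erythroid markers to 4.39 and 0.78 CPM with Car1 at 0. The pericyte list summed to 394 and 377 CPM against 356 and 266 CPM, with only Cspg4 reaching the measured level. At day 7 the neutrophil list summed to 2017 CPM in the chosen cells and 2368 CPM in the remaining cells, and the erythroid list to 352 and 303 CPM.

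Cnmd cells with low Col10a1 were also sorted by the number of rule genes seen, from 0 to 7. This number is what the rule used and depends on depth, so the averages that follow are a description and do not show whether the cells form a separate population. At day 10, Ucma stood at 355 CPM in cells with no rule gene, 1167 CPM with 3, 1437 CPM with 4 and 1716 CPM with 7. Matn3 went from 564 to 2139, 2493 and 2788 CPM in the same cells. Igf1 went the other way, from 1242 CPM with no rule gene to 250 CPM with 3, 142 CPM with 4 and 95.5 CPM with 7, and Mmp13 from 818 to 107, 69.2 and 28.2 CPM. The 514 cells just outside, with 3 rule genes, and the 752 just inside, with 4, differed in Panx3 by 276 against 286 CPM and in Pth1r by 968 against 888 CPM. At day 14 the 429 cells just outside and 473 just inside had 219 and 331 CPM of Panx3 and 875 and 1077 CPM of Pth1r. Ihh was highest in the middle at day 10, at 57.0 and 56.6 CPM with 2 and 3 rule genes, and lowest at the ends, at 17.8 CPM with none and 19.9 CPM with 7. Median depth climbed along the same axis, from 11487 to 22254 UMIs at day 10 and from 12072 to 26806 UMIs at day 14, and its part in these steps was not tested.

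**Figure D4:**
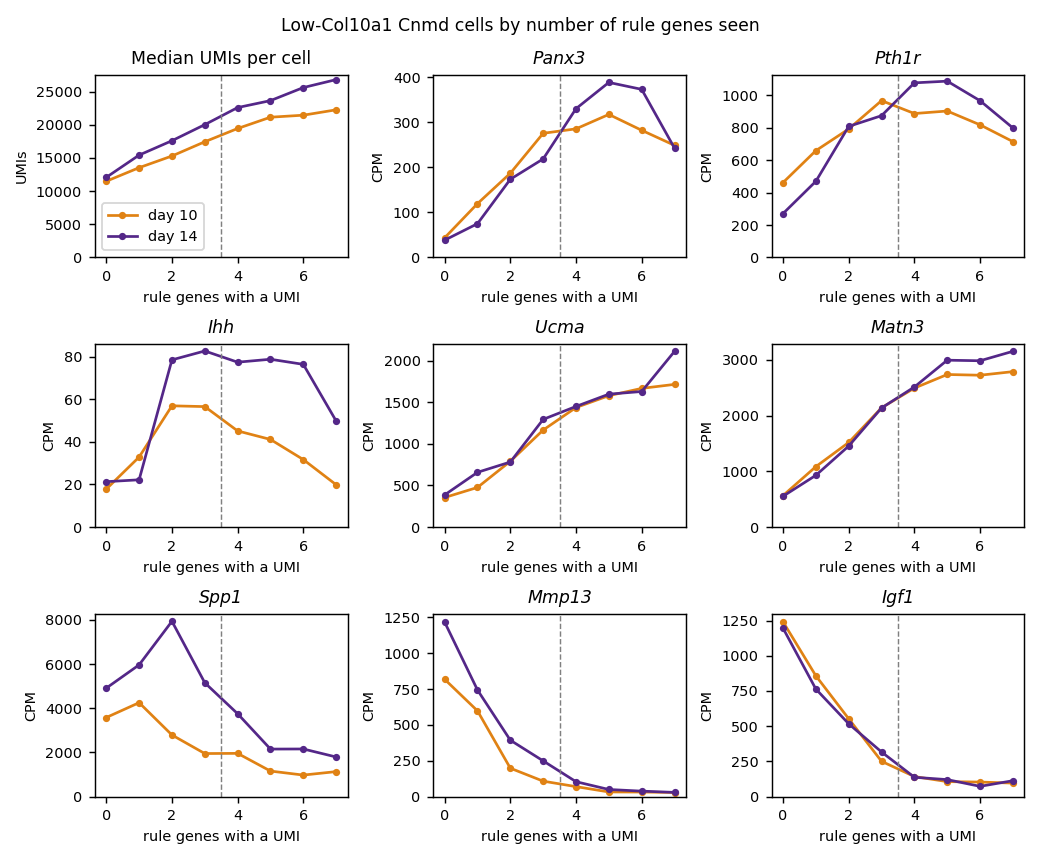
Median UMIs per cell and levels in CPM of Panx3, Pth1r, Ihh, Ucma, Matn3, Spp1, Mmp13 and Igf1 in Cnmd cells with low Col10a1, by the number of rule genes with a UMI from 0 to 7, at day 10 and day 14. The dashed line marks the limit between 3 and 4. Ucma climbs from 355 to 1716 CPM and Igf1 drops from 1242 to 95.5 CPM at day 10, while median UMIs climb from 11487 to 22254.

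Within the chosen cells, the level of Col10a1 separated a small set in which genes of the prehypertrophic stage and of mineralization were both higher. At day 10, 616 of the 2059 cells (29.9%) had no Col10a1 UMI, 1313 (63.8%) had up to 5 per 10000, 82 (3.98%) had 5 to 20 and 48 (2.33%) had 20 to 50. Ihh was at 19.2, 32.8, 161 and 203 CPM over these 4 bands, Mef2c at 215, 268, 671 and 780 CPM, Pth1r at 696, 817, 1939 and 2172 CPM, and Panx3 at 224, 285, 626 and 740 CPM. Mgp, the matrix Gla protein that inhibits mineralization, was at 28451, 24491, 9347 and 8971 CPM. Thus the level of Ihh, Mef2c, Pth1r and Panx3 was higher in the 82 and 48 cells with 5 to 50 Col10a1 UMIs per 10000, and Mgp and Ucma were lower there. Other hypertrophy and mineralization genes were higher there too. Over the 4 bands, Ibsp was at 3367, 5203, 17602 and 27107 CPM and Spp1 at 1000, 1382, 2807 and 3068 CPM. Alpl was at 354, 425, 1127 and 1156 CPM, and Mmp13 at 33.0, 45.5, 41.9 and 135 CPM. The bands therefore did not set prehypertrophic genes apart from hypertrophic ones. At day 14, with 124, 809, 71 and 37 cells, Ihh was at 32.3, 57.3, 285 and 204 CPM and Panx3 at 275, 317, 697 and 739 CPM. Spp1 was at 2804, 2361, 7153 and 4538 CPM in these cells. The 48 cells just inside the Col10a1 limit at day 10 and the 20 cells just outside it, with 50 to 100 Col10a1 UMIs per 10000 and 4 or more rule genes, had Ihh at 203 and 288 CPM and Car8 at 199 and 106 CPM. At day 14 the 37 cells inside and 35 outside had Ihh at 204 and 333 CPM and Car8 at 207 and 154 CPM.

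Ucma ordered the chosen cells in a similar way without use of Col10a1. The 126 cells without Ucma at day 10 had Ibsp at 39403 CPM, those with up to 5 Ucma UMIs per 10000 (485 cells) had 11608 CPM, those with 5 to 20 (838 cells) 1837 CPM, and those with 20 or more (610 cells) 436 CPM. Panx3 went from 557 to 458, 264 and 160 CPM, Pth1r from 1751 to 1295, 793 and 472 CPM, and Ihh from 97.7 to 60.6, 32.7 and 21.1 CPM. The rule genes did not all run the same way. Car8 went from 266 and 273 CPM down to 217 and 170 CPM with more Ucma, while Cmtm5 went up, from 52.8 to 73.7, 95.7 and 115 CPM. At day 14 Ibsp went from 32395 to 736 CPM, Panx3 from 587 to 170 CPM and Cmtm5 from 51.5 to 89.1 CPM, and Car8 was at 261, 270, 285 and 240 CPM with no steady order. Median depth differed little between the outer bands, 19000 and 20301 UMIs at day 10 and 20794 and 23498 UMIs at day 14.

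**Figure D5:**
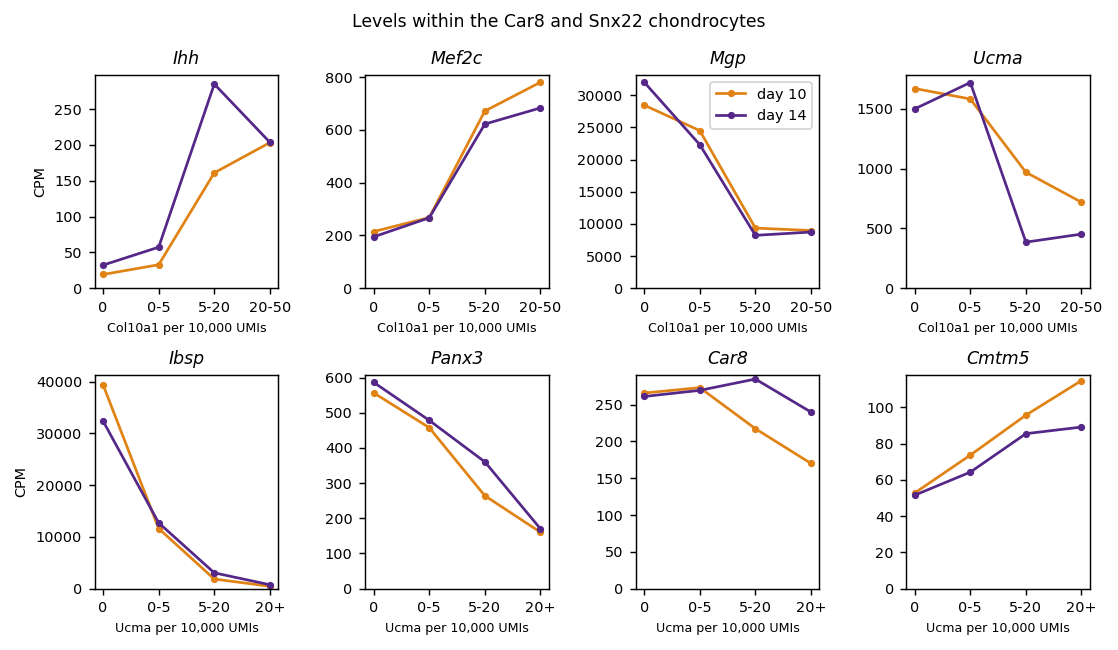
Levels in CPM within the chosen cells. The upper panels show Ihh, Mef2c, Mgp and Ucma by band of Col10a1 (0, above 0 to 5, 5 to 20 and 20 to 50 UMIs per 10000), and the lower panels show Ibsp, Panx3, Car8 and Cmtm5 by band of Ucma (0, above 0 to 5, 5 to 20, and 20 or more). At day 10, Ihh climbs from 19.2 to 203 CPM over the Col10a1 bands, and Ibsp drops from 39403 to 436 CPM over the Ucma bands while Cmtm5 climbs from 52.8 to 115 CPM.

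The chosen cells also held more Cnmd, 3411 and 2999 CPM at days 10 and 14 against 2349 and 1974 CPM, so the comparison was repeated within 3 bands of Cnmd, 5 to 10, 10 to 30, and 30 or more UMIs per 10000, against the remaining cells with low Col10a1. This comparison was added after the data were seen. Panx3 was higher in the chosen cells in every band on both days, by log2 ratios of 0.62 to 1.79, and Rarres1 by 0.47 to 1.98. Mmp13, Spp1 and Igf1 were lower in every band, Mmp13 with ratios from -2.84 to -0.84 and Igf1 from -2.53 to -1.65. For Ihh the ratio was 1.19, -0.14 and -0.37 from the lowest to the highest band at day 10 and 0.84, 0.56 and 0.22 at day 14. The median over the hypertrophy genes was 0.27, -0.11 and -0.20 at day 10 and 0.36, -0.07 and 0.11 at day 14, beside -0.29 and -0.11 over all cells with low Col10a1. The positive medians of the lowest band rested on 66 and 68 chosen cells, and at day 10 the bands with the other chosen cells stayed negative. At day 14 the highest band, with 490 chosen cells, was also positive. In the highest Cnmd band the Ucma gap also narrowed, to 0.17 and 0.03. Epyc was lower in the lowest band at day 14, with a ratio of -0.51 at 7.63 against 10.9 CPM. In each other band of the 2 days it was higher, by 0.785 to 1.30.

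Between the days, the chosen cells of day 14 and day 10 were compared as 2 libraries. Of 4913 genes, 13 were at least 2-fold higher at day 14 (0.265%) and 55 at least 2-fold lower (1.12%). In the remaining Cnmd cells 28 of 5206 genes were 2-fold higher and 21 2-fold lower. The lower genes were led by Il11, a cytokine of the interleukin 6 family, with 166 and 16.5 CPM on days 10 and 14, a log2 ratio of -3.33 (-3.48 to -3.19), against -2.17 in the remaining cells. The neutrophil-attracting chemokines Cxcl2 and Cxcl1 had ratios of -2.40 and -2.04, against -0.69 and -0.89 in the remaining cells. The immediate-early genes Btg2, Ier3, Nr4a1 and Nr4a2, which cells switch on quickly after a stimulus, had ratios from -1.85 to -1.63, and from -1.50 to -0.95 in the remaining cells. Bst2 had a ratio of -2.01 and the antioxidant gene Srxn1 -1.63. Matn1, a matrilin of mature cartilage, went from 283 to 85.4 CPM, a ratio of -1.73, and from 145 to 56.4 CPM in the remaining cells.

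Higher at day 14 were the small heat shock protein genes Hspb1, at 1152 and 3211 CPM, and Cryab, at 76.0 and 198 CPM, with ratios of 1.48 and 1.38. The chitinase-like protein gene Chil1 had a ratio of 2.02, haptoglobin (Hp) 1.44, the Wnt inhibitor Sfrp5 1.11, Spp1 1.03, Hspa4l 0.98 and Enpp2, which makes lysophosphatidic acid, 0.98. The unnamed genes Gm45833 and AC160336.1 had ratios of 2.91 and 1.28. In the remaining cells each of these was also higher at day 14, by 0.39 to 2.01. Of the rule genes, only Car8 was higher at day 14, by 0.27 (0.23 to 0.32). The other 6 were lower, with ratios of -0.64 for Snx22, -0.57 for Sorbs2, -0.52 for Extl1, -0.27 for Cmtm5, -0.19 for Ncmap and -0.07 (-0.14 to -0.00) for Fzd9. Outside the rule, Panx3 was higher by 0.27 (0.23 to 0.31), Rarres1 by 0.63 (0.55 to 0.71) and Ihh by 0.96 (0.87 to 1.06). Day and library cannot be told apart here.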

How the data were processed

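Cells of fracture callus were measured by 10x Genomics droplet sequencing, 1 library for each of days 7, 10 and 14. The deposited matrices hold UMI counts per gene and cell as the authors made them with Cell Ranger, version 3.0 and build mm10 in the submitters' processing notes but 3.1.0 in the matrix header, and the kit version also differs between the labels and the study's methods. No cell annotation was used. The members and gene lists were chosen with earlier results of these data known. Symbols on 2 identifiers (38 symbols) were kept apart by identifier. Coordinates came from the GENCODE annotation of GRCm38, in which 99.6% of 32285 identifiers matched.

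Counts were summed per group and day and divided by the summed total. With 1 library a day no test across samples was possible, so exact Poisson, binomial and Clopper-Pearson 95% intervals (scipy 1.17.1, numpy 2.4.6, pandas 2.3.3, Python 3.11.15; figures with matplotlib 3.10.9) were given. These cover counting error only. Genes were measured at 20 CPM and called at 2-fold. Named genes were the 20 higher and 15 lower genes outside the rule with the largest smaller ratio of days 10 and 14 (at least 50 CPM), the 10 largest in each direction between days, and members of the fixed lists. Values of a few of these genes are not reported here. No doublet caller was run; the limit of 5000 genes was varied instead. The ratio code was tested on simulated data.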

Additional observations from a re-analysis of the deposited data

Results flagged for a closer look

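The ratio of the chosen over the remaining Cnmd cells had opposite directions at day 10 and day 14 for 13 named genes, with counting intervals clear of 0 on both days. The difference between days was not tested, since each day was 1 library. Lower in the chosen cells at day 14 and higher at day 10 (log2 ratios of day 14, with those of day 10 in brackets) were the immediate-early genes Btg2, -0.26 (0.26), and Ier3, -0.41 (0.40), the matrilin Matn4, -0.19 (0.11), and the BMP target Id3, -0.13 (0.12). Higher at day 14 and lower at day 10 were Pth1r, 0.14 (-0.32), the cell cycle inhibitor Cdkn1c, 0.28 (-0.19), the hedgehog-binding gene Scube1, 0.17 (-0.31), the Wnt ligand Wnt5b, 0.16 (-0.21), its receptor Ryk, 0.13 (-0.10), and the collagen hydroxylase P4ha2, 0.26 (-0.36). The glycolysis genes Tpi1, 0.35 (-0.15), Gapdh, 0.12 (-0.22), and Aldoa, 0.08 (-0.20), did the same. Much of this depended on the cells with high Col10a1 among the remaining cells. Against the remaining cells with low Col10a1 alone, Pth1r (0.09 at day 10), Cdkn1c (0.27) and Wnt5b (0.25) were higher on both days and Matn4 lower on both. Ier3, Tpi1, Aldoa and P4ha2 kept opposite directions with intervals clear of 0, and for Btg2, Id3, Ryk, Scube1 and Gapdh an interval on 1 day reached 0.

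Cells above 5000 genes were outside every comparison of the report except the setting with no upper limit on genes. Of these, 113 at day 7, 344 at day 10 and 252 at day 14 met the other limits of the rule, which at day 7 is more than the 47 cells chosen.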

How the results depend on the processing

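Of 89 comparison values, 56 stayed within their counting spread or within 1.5 times of a count, 32 moved and 1 reversed over 14 other settings, and 2 more chosen after seeing the data. The chosen share of Cnmd cells was 57.3% at day 10 and 37.0% at day 14. It was 71.65% and 52.18% with at least 3 rule genes, 36.4% and 20.16% with at least 5, 61.99% and 44.15% with Cnmd of at least 10 per 10000, 61.7% and 41.62% in cells of at least 10000 UMIs, 36.0% and 19.38% after thinning, 59.52% and 39.86% with no upper limit on genes, and 50.91% and 26.88% with a limit of 4000 genes. The 9 genes 2-fold higher on both days became 14 with at least 3 rule genes, 3 with 5, 5 after thinning, none of them outside the rule, and 19 with a filter of 5 CPM. The 107 lower genes became 63 with at least 5 rule genes, 70 with the higher Cnmd limit, 47 after thinning and 232 with 5 CPM. The 68 genes that differed between days became 135 with 5 CPM. The left-out median, 0.68 and 0.86, was 0.97 and 1.03 with at least 3 rule genes, 0.47 at day 10 with 5, and 0.50 and 0.63 against low Col10a1. The hypertrophy median over both days, -0.63, was -0.54 with at least 5 rule genes, -0.51 with the higher Cnmd limit, -0.20 against low Col10a1, and -0.48 after thinning. The mean of the 6 medians within Cnmd bands, also against low Col10a1 (baseline -0.20), was 0.06, a change of sign. Positive medians came from the lowest bands, with 66 and 68 chosen cells, and from the highest band at day 14 (0.11), with 490. Of 1770 values of named genes, 810 moved beyond counting error and 21, in 10 genes, had the other sign. Besides Sp7, Car12 and Alpl, these included, against low Col10a1, Pth1r at day 10 (0.09, from -0.32), Mef2c at day 14 (0.31, from -0.28) and Cdkn1c at day 10 (0.27, from -0.19). Mki67, at 0.309 and 0.246 on days 10 and 14, was -0.905 and -1.720 with a limit of 4000 genes. With the mean of the cells' own shares it was -0.076 and -0.174. It was also -0.642 at day 10 after thinning and -0.054 at day 14 against low Col10a1. Among values of at least 2-fold, 5 changed sign: S100a8 at day 10 (-6.58) was 5.99 with at least 3 rule genes, 0.28 with a limit of 4000 genes and 0.55 without cells with neutrophil RNA, S100a9 (-7.66) was 6.57 with at least 3 rule genes, and Ihh at day 14 (-1.28) was 0.35 against low Col10a1. For both neutrophil genes 1 cell held nearly all UMIs at day 10. No paired analysis was possible because each day had 1 library. Genes near 10 CPM, such as Snx22, were limited by depth.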
